A study of Mus musculus with 16 samples.

Results

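The TAM receptors Tyro3, Axl and Mertk and their ligands Gas6 and Pros1 were examined in transcriptomes of mouse muscle stem cells (MuSCs). These 5 genes, 2 ligands and 3 receptors, were taken by name from the 24411 genes of the count table, and all 5 passed the filter on low counts in every comparison. The family was chosen with earlier results of these data known, across all 4 groups, and so was in effect selected on these counts. Its levels are given as a description, and a call of a member is not independent evidence.

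The 16 libraries came from MuSCs isolated by fluorescence-activated cell sorting from skeletal muscle, with 4 libraries in each of 4 groups: control or TRF2 MuSC-cKO, from uninjured muscle or 3 days after notexin injury (3 DPI). TRF2, encoded by Terf2, is a telomere-binding protein of the shelterin complex. In TRF2 MuSC-cKO mice a floxed TRF2 allele is deleted by a tamoxifen-inducible Cre under Pax7, which MuSCs express. The sample records call these cells TRF2 knockout and call the controls Wildtype, and the methods do not say which alleles the controls of these libraries carry. Per the study's methods the mice were on a C57BL/6 background, tamoxifen (3 mg per 20 g of body weight) was given 7 times on alternate days from 8 to 10 weeks of age, and 10 µl of notexin, a snake toxin that destroys myofibers, was injected into the tibialis anterior muscle of the injured groups. The sort kept cells negative for CD45, CD31, CD11b and Sca1 and positive for α7-integrin and for VCAM or CD34. The study's methods speak of biological replicates for its experiments in general, but the records do not say whether each library came from a separate animal, so the p-values below measure the spread between libraries, which may in part be technical.

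The libraries held between 620506 and 1351130 estimated counts. The third library labelled TRF2 MuSC-cKO at 3 DPI stood apart, with a count in 15387 genes against 19996 to 21879 in the other 15. Terf2 was measured at 71.5, 94.5, 66.3 and 73.1 CPM (counts scaled to a common library size) in uninjured control libraries and at 49.7, 46.7, 58.7 and 27.2 CPM in uninjured TRF2 MuSC-cKO libraries, so these groups did not overlap, as was the case in this direction for 6.64% of genes tested (log2 fold change -0.62 ± 0.27 SE, adjusted p = 0.199 by edgeR, not called). At 3 DPI it was 35.5, 48.6, 48.2 and 42.8 CPM in control and 52.6, 21.9, 66.9 and 89.7 CPM in the libraries labelled TRF2 MuSC-cKO, which overlapped and had the higher mean, so this gene does not separate the 3 DPI libraries by their labels. It therefore does not check the labels behind the directions given below for 3 DPI. Of 10 MuSC markers 10 had a negative log2 fold change there and none was called, and 5 were lower without overlap, like 4.35% of genes tested, namely Des (-1.44), Itga7 (-1.66), Myod1 (-1.38), Cdh15 (-2.17) and Myf5 (-0.73). Pax7, the marker of MuSCs, averaged 1217 ± 313 CPM (SD, n = 4) in uninjured control and 772 ± 84.9 CPM in uninjured TRF2 MuSC-cKO libraries, and 152 ± 27.5 and 86.6 ± 50.6 CPM in those groups at 3 DPI. Ptprc, which encodes the CD45 used to exclude cells in the sort, averaged 13.4 ± 2.95, 19.8 ± 7.28, 226 ± 42.2 and 144 ± 29.8 CPM in the same order of groups.

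TAM receptors are transmembrane tyrosine kinases of phagocytes, endothelial cells and many mesenchymal cells. Gas6 and protein S, the product of Pros1, are secreted proteins that bind exposed phosphatidylserine through a Gla domain, which needs carboxylation by a vitamin K-dependent enzyme, and bind a TAM receptor through their other end. In this way they bridge dying cells to phagocytes. Gas6 binds all of the TAM receptors and is the known ligand of Axl, whereas protein S acts on Tyro3 and Mertk and is also an anticoagulant of plasma. Gas6 takes its name from growth arrest-specific genes, which were first isolated from fibroblasts that had stopped dividing.

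The genes lie apart in the GRCm38 genome (GENCODE M21). Gas6 occupies chr8:13465374-13494490 on the minus strand, and 34 of its exonic bases are shared with exons of Tmem255b on the opposite strand. Tmem255b had at most 31 counts in any library, against 131 to 1202 for Gas6. Pros1 lies at chr16:62854307-62929346 (plus strand), Axl at chr7:25757273-25788705 (minus), Mertk at chr2:128698956-128802894 (plus) and Tyro3 at chr2:119797733-119818104 (plus). Mertk overlaps an antisense gene and a small nucleolar RNA, but shares no exonic base with them, and no gene overlaps the other 3 members.

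Because TRF2 binds telomeric TTAGGG repeats and the study considers G-quadruplexes, the 250 bases before each RefSeq start (GRCm38.p6) were searched on both strands for TTAGGG and for a run pattern, which is 4 runs of GGG or more separated by 1 to 7 bases of any kind (N). The pattern was found before 4 of the 5 members, Axl being the exception, and before 16.7% of 32841 promoters of the same length. TTAGGG was found once before Gas6 and in none of the other members, against 9.32% of all promoters, and it lies inside a run pattern there. GC content of the 5 windows ran from 54.8% to 73.2%. A match of letters is a description and no binding was measured in these libraries. The windows of the members called in a comparison below are printed 5′ to 3′ along the gene's own strand, with the run pattern in capitals. It reads as runs of CCC here because the GGG runs are on the opposite strand.
Gas6 (chr8:13494536-13494785, minus strand): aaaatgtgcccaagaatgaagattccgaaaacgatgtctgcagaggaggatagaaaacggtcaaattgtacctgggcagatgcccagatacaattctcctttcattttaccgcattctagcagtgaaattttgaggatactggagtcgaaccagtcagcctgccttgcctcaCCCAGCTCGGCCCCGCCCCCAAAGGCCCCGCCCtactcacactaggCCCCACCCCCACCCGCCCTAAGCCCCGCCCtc
Mertk (chr2:128698665-128698914, plus strand): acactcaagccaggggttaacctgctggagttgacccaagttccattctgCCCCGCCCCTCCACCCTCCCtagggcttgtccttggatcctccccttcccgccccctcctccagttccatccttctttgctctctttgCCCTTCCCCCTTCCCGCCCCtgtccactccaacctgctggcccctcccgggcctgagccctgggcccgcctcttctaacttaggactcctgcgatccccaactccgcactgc
Axl (chr7:25788734-25788983, minus strand): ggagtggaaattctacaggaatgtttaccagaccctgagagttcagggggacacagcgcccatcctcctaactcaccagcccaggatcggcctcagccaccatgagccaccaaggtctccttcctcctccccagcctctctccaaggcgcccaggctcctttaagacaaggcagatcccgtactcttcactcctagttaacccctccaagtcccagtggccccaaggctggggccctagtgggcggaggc

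Levels were set out per library, in CPM scaled by the trimmed mean of M-values (TMM) over all 16 libraries. Gas6 was at 323, 204, 245 and 339 CPM in uninjured control MuSCs and at 810, 1113, 963 and 1637 CPM in uninjured TRF2 MuSC-cKO MuSCs. The lowest TRF2 MuSC-cKO library was thus above the highest control, as was the case for 4.98% of genes tested. At 3 DPI Gas6 was at 202, 230.5, 221 and 214 CPM in control and at 231, 242, 239 and 203 CPM in the libraries labelled TRF2 MuSC-cKO. These 8 libraries lay within a narrow range and overlapped between genotypes, and all were below every uninjured TRF2 MuSC-cKO library.

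Pros1, the other ligand, was at 35.7, 38.7, 36.04 and 52.6 CPM in uninjured control, 18.9, 32.2, 37.2 and 32.7 CPM in uninjured TRF2 MuSC-cKO, 43.2, 45.7, 56.1 and 63.4 CPM in control at 3 DPI and 59.6, 70.3, 47.1 and 51.3 CPM in TRF2 MuSC-cKO at 3 DPI. The genotypes overlapped in both states.

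Axl, the receptor that depends on Gas6, was at 205, 158, 157 and 218 CPM in uninjured control and 134, 182, 172 and 140 CPM in uninjured TRF2 MuSC-cKO MuSCs, with overlap. At 3 DPI it was at 292, 261, 301 and 329 CPM in control, all above every uninjured library. In TRF2 MuSC-cKO at 3 DPI the libraries fell apart into 130 and 150 CPM (replicates 1 and 3) and 251 and 276 CPM (replicates 2 and 4).

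Mertk, known from macrophages that take up dying cells, was at 26.8, 32.4, 38.4 and 31.2 CPM in uninjured control and at 26.0, 56.1, 14.3 and 42.2 CPM in uninjured TRF2 MuSC-cKO MuSCs. At 3 DPI it was at 145, 125, 171 and 127 CPM in control and at 176, 105, 37.2 and 92.0 CPM in TRF2 MuSC-cKO. The control groups did not overlap between states, whereas the third TRF2 MuSC-cKO library at 3 DPI lay within the uninjured range. Tyro3, best known from the nervous system, was at 16.3 to 31.3 CPM in uninjured control, 25.9 to 37.4 CPM in uninjured TRF2 MuSC-cKO, 17.5 to 30.9 CPM in control at 3 DPI and 6.99 to 38.6 CPM in TRF2 MuSC-cKO at 3 DPI. It rested on 6 to 36 counts a library, so only a large change could have been seen.

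**Figure D1:**
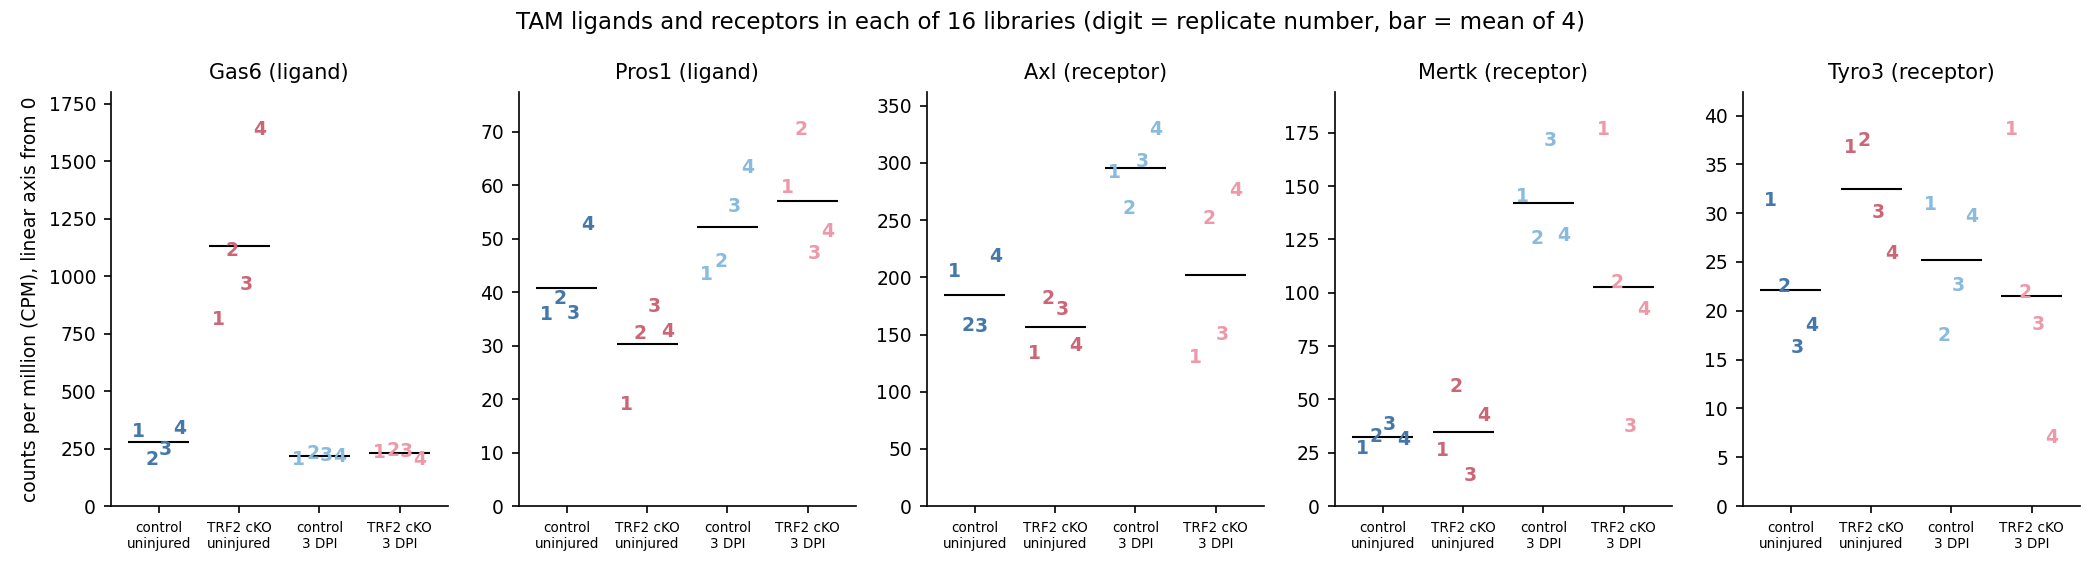
Each panel shows 1 gene, with CPM on a linear axis that starts at 0 and the 4 groups along the x axis. Digits are libraries by replicate number and the bar is the mean of 4. Gas6 stands between 810 and 1637 CPM in uninjured TRF2 MuSC-cKO MuSCs and at or below 339 CPM in the other 12 libraries.

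Genes were ranked by level per length, using the second deposited table, in which abundances are rescaled to each library's total. Counts over rescaled counts rose with transcript length (Spearman's rho 0.69 across 14461 genes). In uninjured control MuSCs the order was Gas6 (242 ± 44.7 rescaled CPM, SD, n = 4), Axl (82.5 ± 10.1), Pros1 (28.0 ± 3.905), Mertk (20.5 ± 4.36) and Tyro3 (12.1 ± 3.66). Gas6 and Axl were each separated from the next gene in every library, whereas Pros1 and Mertk, and Mertk and Tyro3, overlapped. In uninjured TRF2 MuSC-cKO MuSCs Gas6 stood at 1230 ± 342 and Axl at 87.4 ± 12.0, and the other 3 genes, at 27.2 ± 13.4 (Mertk), 26.0 ± 5.97 (Pros1) and 21.7 ± 4.55 (Tyro3), overlapped each other. At 3 DPI the order in control was Gas6, Axl, Mertk, Pros1 and Tyro3 with no overlap between neighbours. In TRF2 MuSC-cKO it was the same, but Axl overlapped Mertk and Mertk overlapped Pros1.

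Among all 24411 genes Gas6 was the 360th most abundant per length in uninjured control MuSCs and the 44th in uninjured TRF2 MuSC-cKO MuSCs. It ranked 546th in control and 385th in TRF2 MuSC-cKO at 3 DPI. Per length, Gas6 outnumbered Pros1 by 8.76 ± 2.00 to 1 in uninjured control, 48.6 ± 13.2 to 1 in uninjured TRF2 MuSC-cKO, 5.42 ± 0.96 to 1 in control at 3 DPI and 5.19 ± 0.89 to 1 in TRF2 MuSC-cKO at 3 DPI. The ratio of Gas6 to Axl was 2.92 ± 0.27, 14.5 ± 5.77, 1.46 ± 0.21 and 2.46 ± 0.99 in that order of groups. The uninjured TRF2 MuSC-cKO libraries had the highest of both ratios, with no overlap with any other group.

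Among 58 receptor tyrosine kinases in the table, Axl was the 6th most abundant per length in uninjured control MuSCs, between Ddr1 (88.6 ± 19.4 rescaled CPM), a collagen receptor, and Igf1r (77.8 ± 24.1), the receptor of insulin-like growth factor. These neighbours differ by less than their spread. Mertk was 27th, between Kdr (21.2 ± 9.44) and Epha2 (20.5 ± 5.92), and Tyro3 was 42nd, between Mst1r (12.2 ± 4.10) and Pdgfra (12.0 ± 5.52), again within the spread. At 3 DPI Axl was 2nd in both genotypes, after Csf1r (318 ± 45.2 in control), the colony-stimulating factor receptor that marks macrophages. Mertk was 3rd in control (92.5 ± 15.9), next to Fgfr1 (91.4 ± 7.28) and Fgfr4 (90.5 ± 9.08), and 4th in TRF2 MuSC-cKO (74.1 ± 37.1), between Fgfr1 (79.0 ± 26.0) and Pdgfrb (65.2 ± 12.1). These gaps, and that between Axl (108 ± 38.01) and Fgfr1 in TRF2 MuSC-cKO, are within the spread. Axl made up 71.5 ± 4.21% of the summed level of the 3 TAM receptors in uninjured control and 56.1 ± 3.23% in control at 3 DPI, and Mertk 18.0 ± 4.63% and 38.4 ± 3.70%. The summed level itself was 115 ± 9.13 and 240 ± 28.1 rescaled CPM in these groups. In TRF2 MuSC-cKO Axl made up 64.5 ± 7.60% in uninjured libraries and 55.9 ± 17.6% at 3 DPI, and Mertk 19.5 ± 8.05% and 36.9 ± 15.8%. The summed level was 136 ± 20.2 and 195 ± 39.5 rescaled CPM there. In replicate 1 of TRF2 MuSC-cKO at 3 DPI Mertk (59.4%) exceeded Axl (30.3%).

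**Figure D2:**
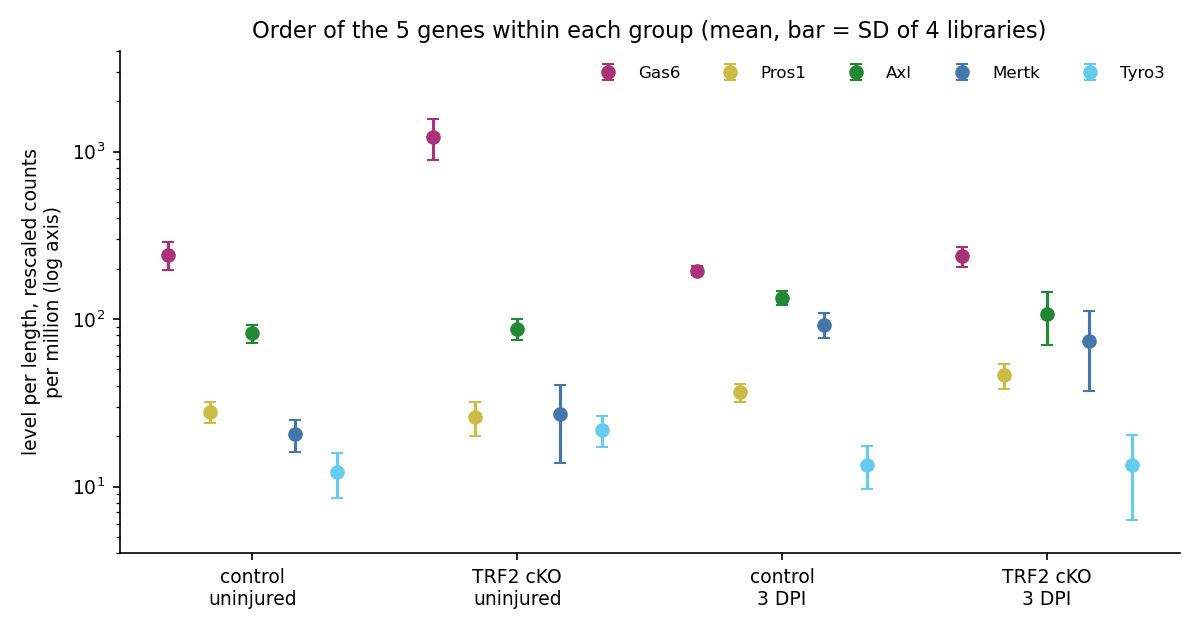
The y axis is the level per length in rescaled CPM on a log axis, and the x axis gives the 4 groups. Points are means and bars are SD of 4 libraries. Gas6 is the uppermost point in every group and Axl the next, and Mertk lies above Pros1 in both groups at 3 DPI.

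The first comparison asked what TRF2 loss changes in uninjured MuSCs. Genes count as called where the adjusted p lay under 0.02 and the fold change over 1.5 in edgeR's quasi-likelihood test with Benjamini-Hochberg adjustment over all genes tested. Gas6 was 4.42-fold higher in TRF2 MuSC-cKO (log2 fold change 2.15 ± 0.21 SE, 95% interval 1.71 to 2.58) and was the only member called, 1 of 5, where 3.22% of 14048 genes were called in either direction, 0.584% higher and 2.63% lower. By p it stood 3rd of all genes tested. Those shares rest on 452 genes called and 82 called higher. On leaving out single libraries these counts ran from 259 to 574 and from 40 to 86. Over the alternatives they ran from 17 to 623 and from 6 to 190. The other members were not called. Tyro3 had a log2 fold change of 0.68 (95% interval -0.07 to 1.42, adjusted p = 0.31), Mertk of 0.24 (-0.48 to 0.97, adjusted p = 0.75), Axl of -0.11 (-0.51 to 0.30, adjusted p = 0.807) and Pros1 of -0.31 (-0.98 to 0.36, adjusted p = 0.642), all by edgeR. For Axl the interval leaves out a 1.5-fold change in either direction. For the other 3 a change of that size lies within it, downward for Pros1 and upward for Mertk and Tyro3. When counts were scaled by library size alone, 176 of 388 called genes were higher, against 82 of 452 here, the median of all genes moved by 0.19 on the log2 scale and the sign of Axl turned (0.08). Relative to that median Axl stayed lower, at -0.16, and Gas6 stood at 2.09.

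Markers of other cells moved in this comparison too. Of the 16 macrophage and myeloid markers 10 passed the filter and none was called, with sums of 135 to 217 CPM in control and 226 to 286 CPM in TRF2 MuSC-cKO. Fibroadipogenic markers summed to 6121 to 9380 CPM in control and 2040 to 3316 CPM in TRF2 MuSC-cKO, with 1 called higher (Dcn, decorin) and 3 lower (Col3a1, Dpt and Gsn) of 8 tested. Over these 8 the median log2 fold change was 0.42, with 5 positive and 3 negative. Of 8 pericyte and smooth muscle markers 2 were called higher, Rgs5 and Cspg4, and their sum was 2354 to 3357 CPM in control and 1957 to 2777 CPM in TRF2 MuSC-cKO. Of 10 MuSC markers 7 were called lower, with sums of 3435 to 5453 against 2046 to 2938 CPM. No endothelial, Schwann or myofiber marker was called. Pecam1 averaged 101 ± 52.8 and 71.9 ± 11.9 CPM, Ly6a 9.21 ± 3.71 and 14.4 ± 9.003 CPM and Pdgfra 34.6 ± 14.01 and 67.4 ± 13.8 CPM in control and TRF2 MuSC-cKO. The part of any of these in the Gas6 values was not tested, and in bulk RNA fewer cells of a type cannot be told from less RNA per cell. No description code in the sample records is shared by uninjured libraries of both genotypes, so whatever the codes stand for cannot be told apart from the genotype here.

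The genes around the receptors were counted list by list in uninjured MuSCs, where 3.22% of all genes tested were called. At that share a short list may hold no call, so the counts do not set these lists apart from all genes. None of the 5 genes of the vitamin K cycle and γ-carboxylation, of the 8 tested Gla-domain proteins, of the 29 tested adaptors and signalling proteins, of the 15 engulfment genes or of the 13 tested scramblases and flippases was called in the edgeR fit. Of these, 1, 1, 2, 1 and 3 had an unadjusted p under 0.05, as had 2736 of all 14048 genes tested. For the adaptors and signalling proteins 1 gene was called with limma-voom, DESeq2, no filter, at least 10 counts in every library or the replicate block, and without uninjured control replicate 3 or uninjured TRF2 MuSC-cKO replicate 4. With at least 10 counts in every library 1 scramblase or flippase was called too. Of the 11 genes of receptor shedding and intramembrane proteolysis, a list of proteases that cut membrane proteins and of their partners and inhibitors, Rhbdf2 rose (log2 fold change 1.19 ± 0.28 SE, adjusted p = 0.00485 by edgeR). Rhbdf2 encodes an inactive rhomboid, not a protease, a partner that brings Adam17 to the cell surface. No gene of that list was called without uninjured control replicate 1, 2 or 4 or uninjured TRF2 MuSC-cKO replicate 1, in a single fit of all 16 libraries or with the rescaled table. Of the 19 tested other phosphatidylserine bridges and receptors, Megf10, an engulfment receptor also expressed in MuSCs, fell by 1.20 on the log2 scale (SE 0.20, adjusted p = 0.00013 by edgeR), from 567 ± 95.2 to 228 ± 61.4 CPM. No gene of this list was called in a single fit of all 16 libraries or with the rescaled table, and 2 were called with limma-voom, DESeq2, no filter or the replicate block and without uninjured control replicate 3. Gas1, a membrane protein and the other growth arrest-specific gene called, 1 of 8 tested, fell by 1.72 on the log2 scale (adjusted p = 5.17e-07 by edgeR), opposite in sign to Gas6, and was not called with the rescaled table. Of its list 2 genes were called with library size alone or at least 10 counts in every library. Of 54 tested other receptor tyrosine kinases Fgfr1, Fgfr4 and Ret were called, all lower, by 0.79, 0.78 and 0.85 on the log2 scale. That count was 0 without uninjured control replicate 2 or 4 or uninjured TRF2 MuSC-cKO replicate 3, 1 without uninjured control replicate 1 or uninjured TRF2 MuSC-cKO replicate 2 and 6 without uninjured control replicate 3, and it ran from 0 to 6 over the other alternatives. The median log2 fold change was 0.24 over the members and 0.06 over all genes.

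At 3 DPI the same comparison called none of the 5 members. It called 0 of 14559 genes (0%) in edgeR's test, with 1362 at an unadjusted p under 0.05, whereas limma's robust fit called 28 genes and DESeq2 22. On counts simulated with the spread of this comparison, 22% of 4-fold and 0% of 2-fold changes were called. In uninjured MuSCs these shares were 73% and 23%. The lack of a call at 3 DPI therefore does not show that a gene was unchanged. Gas6 had a log2 fold change of 0.12 (95% interval -0.30 to 0.55, adjusted p = 0.869), so the interval leaves out a change of the size seen in uninjured MuSCs. Axl had -0.51 (-1.08 to 0.07, adjusted p = 0.568), Mertk -0.43 (-1.23 to 0.36, adjusted p = 0.727), Pros1 0.17 (-0.52 to 0.86, adjusted p = 0.89) and Tyro3 -0.18 (-1.39 to 1.03, adjusted p = 0.94), all by edgeR. No member was without overlap between genotypes, as 3.3% of genes were with higher and 4.35% with lower values. With only the 4 libraries that share a description code (replicates 1 and 2 of each genotype), Mertk and Tyro3 changed sign, to 0.07 and 0.35, Axl stayed lower at -0.53 and Gas6 was at 0.14. No gene of any pathway list was called. Of 16 macrophage and myeloid markers 15 had a negative log2 fold change (median -0.53), as had 8 of 10 fibroadipogenic markers (median -0.27). All 6 Schwann markers had a positive one (median 0.37), and no marker was called. The part of these cells in the Axl and Mertk values was not tested.

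The difference between the genotype effects was tested as an interaction over all 16 libraries. For Gas6 the effect at 3 DPI was lower than that in uninjured MuSCs by a log2 difference of -1.95 ± 0.32 SE (95% interval -2.61 to -1.28, adjusted p = 0.0181 by edgeR), a 3.85-fold difference. Of 16822 genes, 3 (0.0178%) were called, and the other two were Cdkn1a (-2.40), the p21 inhibitor of cyclin-dependent kinases, and Ccng1 (-2.40), cyclin G1, which are named after their values were seen. The call of Gas6 lies close to the threshold. It was lost on leaving out any of 13 of the 16 libraries, each control library among them, and kept without uninjured TRF2 MuSC-cKO replicate 1 or 3 or TRF2 MuSC-cKO replicate 3 at 3 DPI, with differences from -2.13 to -1.83 and adjusted p from 0.000256 to 0.0843 by edgeR. The other members had differences of 0.56 (Pros1), -0.32 (Axl), -0.59 (Mertk) and -0.77 (Tyro3), none called, with adjusted p of 0.946 or more by edgeR.

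**Figure D3:**
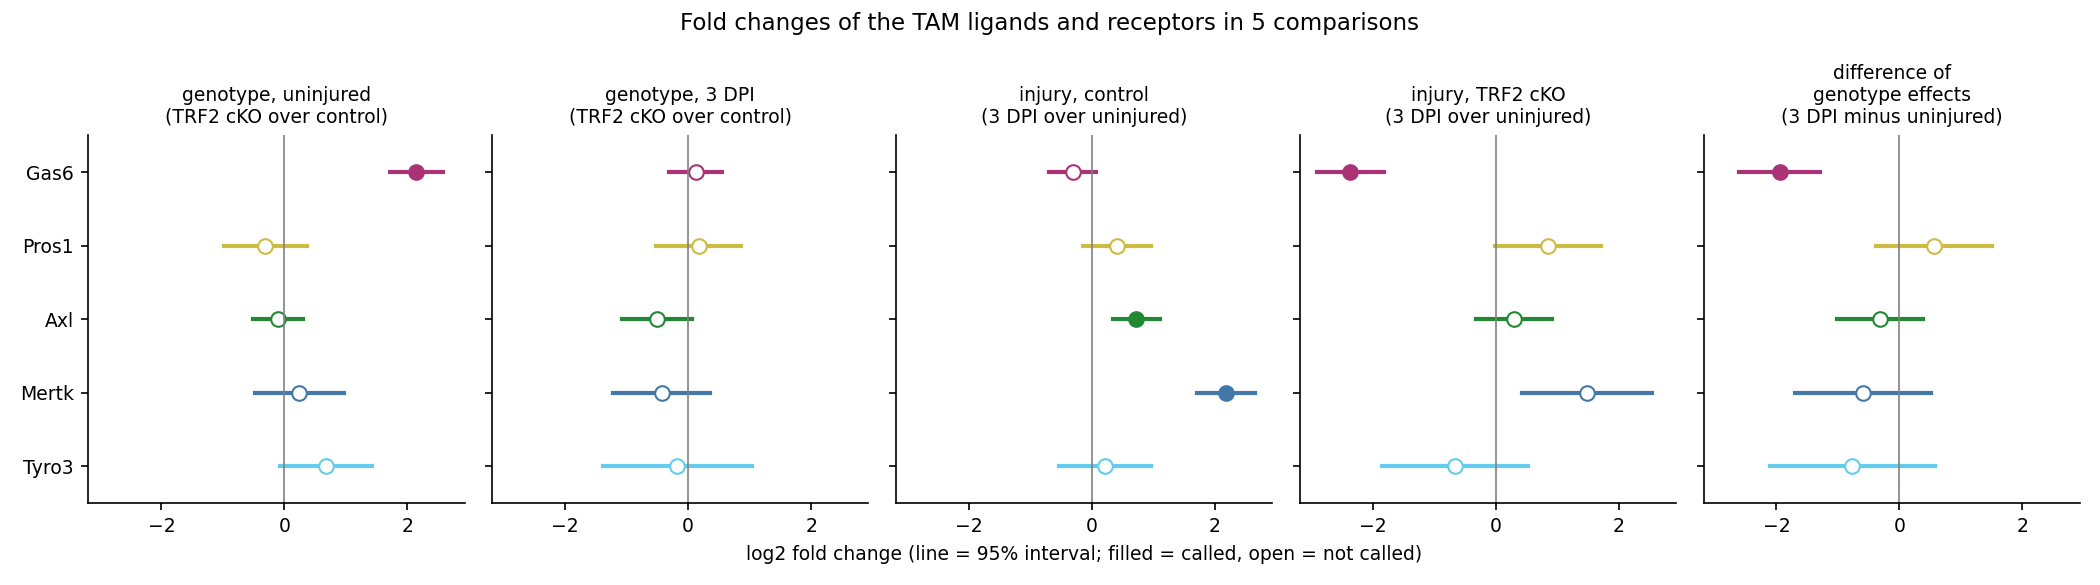
Each panel shows 1 comparison, with the log2 fold change on the x axis and the 5 genes on the y axis. Points are edgeR estimates, lines their 95% intervals, and filled points are genes called. Gas6 is filled in 3 panels (2.15, -2.36 and -1.95), and Mertk (2.18) and Axl (0.72) in the injury comparison of control MuSCs.

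Injury was compared within each genotype. In each genotype 1 description code is shared by both states, on uninjured replicate 4 and on replicates 3 and 4 at 3 DPI. The other libraries carry codes found in only 1 state. The part of the codes in the injury values and in the interaction was not tested. In control MuSCs 2 of 5 members were called, both receptors and both higher at 3 DPI, where 20.2% of 15356 genes were called in either direction, 10.8% higher and 9.46% lower. Scaling by library size alone gave 1989 higher of 3055 called, against 1652 of 3104 here. Neither receptor overlapped between states, as was the case for 12.7% of genes. Mertk was 4.54-fold higher (log2 fold change 2.18 ± 0.23 SE, adjusted p = 3.06e-10 by edgeR). Axl was 1.65-fold higher (0.72 ± 0.19, adjusted p = 0.00282 by edgeR), and this call was lost without uninjured control replicate 2 (0.61, adjusted p = 0.0415), in a single fit of all 16 libraries (0.68, adjusted p = 0.0714) and with the rescaled table (0.63, adjusted p = 0.0403). Pros1 had 0.40 (95% interval -0.15 to 0.96, adjusted p = 0.332), Tyro3 0.21 (-0.54 to 0.96, adjusted p = 0.763) and Gas6 -0.31 (-0.70 to 0.07, adjusted p = 0.265), none called by edgeR.

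In TRF2 MuSC-cKO MuSCs Gas6 was the member called, 1 of 5, where 4.04% of 14578 genes were called in either direction, 2.43% higher and 1.61% lower. These 589 genes became 1316 without replicate 3 at 3 DPI and 358 to 439 on leaving out one of the other 7 libraries. It did not overlap, like 7.87% of genes with lower values, and was 5.14-fold lower at 3 DPI (log2 fold change -2.36 ± 0.25 SE, 95% interval -2.91 to -1.82). This comparison shares its uninjured TRF2 MuSC-cKO libraries with the genotype comparison, so the same high Gas6 values enter both. Mertk had a log2 fold change of 1.49 (95% interval 0.43 to 2.54, adjusted p = 0.109 by edgeR) and was not called. Without replicate 3 at 3 DPI, the library with the fewest genes detected, it was called (1.78, adjusted p = 0.000619). Pros1 was higher at 3 DPI in every library without overlap, as were 6.19% of genes tested, but was not called (0.85, adjusted p = 0.312). Axl had 0.30 (adjusted p = 0.702) and Tyro3 -0.66 (adjusted p = 0.649), both overlapping.

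Macrophage and myeloid markers moved with Mertk. All 16 were called higher at 3 DPI in control and 12 of 16 in TRF2 MuSC-cKO, and none was at 0 in all libraries of the series. Their sum ran from 135 to 286 CPM in uninjured libraries, from 5976 to 7616 CPM in control at 3 DPI and from 2431 to 7132 CPM in TRF2 MuSC-cKO at 3 DPI. Itgam, which encodes CD11b, averaged 15.4 ± 13.2 CPM in uninjured control and 393 ± 51.4 CPM in control at 3 DPI, and Adgre1, which encodes F4/80, 12.9 ± 8.77 and 235 ± 36.1 CPM, although the sort excludes CD45 and CD11b. In TRF2 MuSC-cKO at 3 DPI Mertk and the marker sum had the same order over the libraries, 176, 105, 92.0 and 37.2 CPM beside 7132, 5357, 5095 and 2431 CPM. The orders matched in uninjured control too, but not in the other groups. In control at 3 DPI Mertk was at 145, 125, 171 and 127 CPM beside sums of 5976, 7539, 7616 and 7160 CPM. In uninjured TRF2 MuSC-cKO the largest sum, 286 CPM, went with the least Mertk, 14.3 CPM. In CPM, which are not per length, Mertk came to 2.03 ± 0.37% of the marker sum in control and 1.94 ± 0.40% in TRF2 MuSC-cKO at 3 DPI. It came to 19.4 ± 1.23% in uninjured control and 14.4 ± 7.98% in uninjured TRF2 MuSC-cKO, where it spanned 5 to 22.9%. In TRF2 MuSC-cKO at 3 DPI Axl did not share the order of the sum, since the library with the largest sum (7132 CPM) held the least Axl, 130 CPM. Some other markers were called with injury as well. In control 6 fibroadipogenic markers rose and 3 fell of 10, with sums of 6121 to 9380 CPM in uninjured and 4353 to 6536 CPM in injured muscle, and 1 MuSC marker rose and 8 fell of 10, with sums of 3435 to 5453 and 1222 to 1678 CPM. Of 8 pericyte and smooth muscle markers 2 fell, of 6 tested myofiber markers 2 rose, of 10 endothelial markers 1 rose and 1 fell, and no Schwann marker was called. The share called over all genes tested was 20.2% in control (10.8% higher, 9.46% lower) and 4.04% in TRF2 MuSC-cKO. The endothelial calls in control lie near that share. In TRF2 MuSC-cKO 7 of 10 MuSC markers fell, with sums of 2046 to 2938 CPM in uninjured and 599 to 753 CPM in injured muscle. Of 8 pericyte and smooth muscle markers 1 fell, and their sum was 1957 to 2777 and 938 to 1165 CPM. Of 10 fibroadipogenic markers 1 rose, and their sum was 2040 to 3316 and 3377 to 6626 CPM, higher at 3 DPI, whereas in control the injured range was the lower one and overlapped the uninjured one. None of these 3 sums overlapped between states in TRF2 MuSC-cKO. A sum follows its most abundant genes, for the fibroadipogenic markers Col3a1 and Col1a1 (mean log2 CPM 11.5 and 10.6 at 3 DPI). Over the 10 fibroadipogenic markers the median log2 fold change with injury was positive in both genotypes, 1.61 in control and 0.62 in TRF2 MuSC-cKO. In control the pericyte and smooth muscle sum was 2354 to 3357 and 862 to 1137 CPM. The part of any of these cells in the Mertk, Axl and Gas6 values was not tested.

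**Figure D4:**
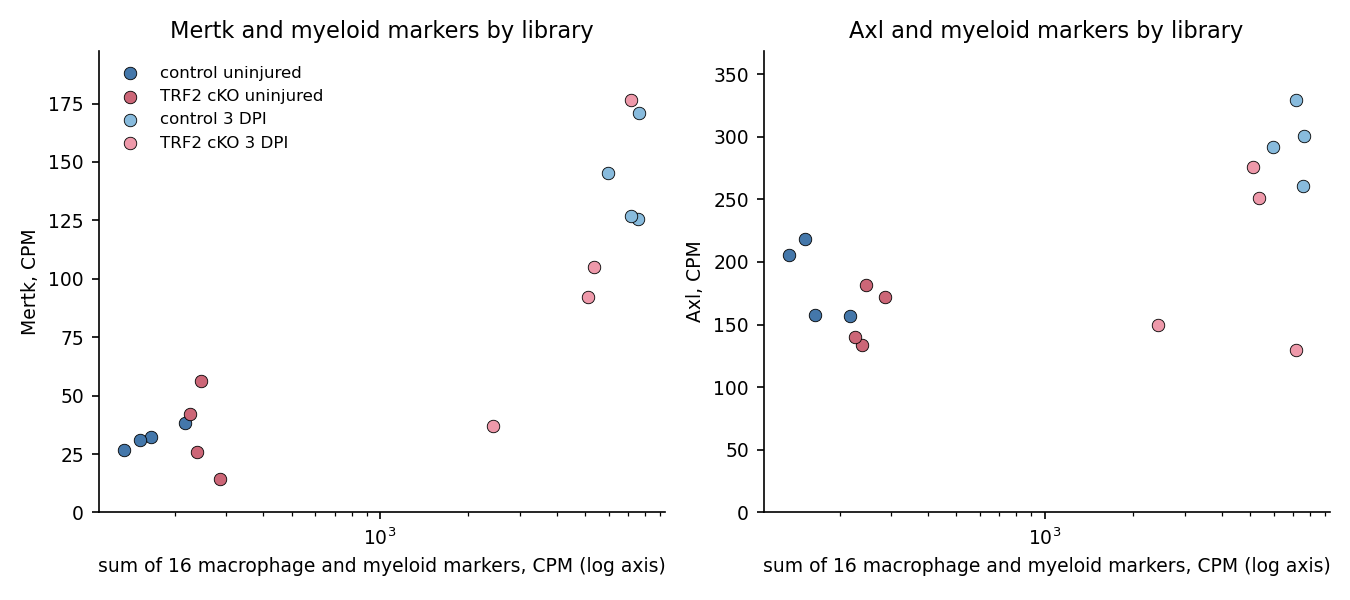
The x axis is the sum of 16 macrophage and myeloid markers in CPM on a log axis, and the y axis is Mertk (left) or Axl (right) in CPM from 0. Each point is 1 library, coloured by group. Uninjured libraries lie at 286 CPM of markers or less, and the 3 DPI libraries at 2431 or more, where Mertk spans 37.2 to 176 CPM.

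Among the genes around the receptors, injury in control MuSCs called 3 of 11 tested Gla-domain proteins, all higher. These were the coagulation factors F7 (log2 fold change 2.50) and F10 (2.68) and matrix Gla protein, Mgp (1.34). Of all genes tested 20.2% were called, 10.8% higher and 9.46% lower. The count of Gla-domain proteins was 2 to 3 on leaving out single libraries and 1 to 3 over the alternatives. None of the 5 vitamin K cycle genes was called in edgeR's test, 1 having an unadjusted p under 0.05, as had 4993 of all 15356 genes tested. Of 11 genes of receptor shedding and intramembrane proteolysis 3 rose and 2 fell, led by Adam17 (1.38), which sheds Mertk and Axl, the γ-secretase subunit Aph1b (-1.35) and Rhbdf2 (0.98). This count of 5 was 2 to 4 on leaving out single libraries, falling to 3 or 2 without any of them but control replicate 1 at 3 DPI, and 1 to 4 over the other alternatives. Of 30 adaptors and signalling proteins 7 rose and 5 fell. The widest changes were those of Plcg2 (3.21) and Vav1 (2.59), both of blood cells, and of Pik3cb (1.80), a catalytic subunit of phosphatidylinositol 3-kinase.

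Of 20 tested other phosphatidylserine bridges and receptors 9 rose and 1 fell, led by the scavenger receptors Stab1 (4.27) and Cd36 (3.49), whereas Megf10 fell by 2.65 on the log2 scale. Of 15 engulfment genes 5 rose and none fell, led by the small GTPase Rhog (2.67), the lipid transporter Abca1 (2.03) and Elmo1 (1.27). Of 14 scramblases and flippases Atp8b1 (1.04) and the scramblase Ano6 (0.85) rose. Over all genes tested 10.8% were called higher and 9.46% lower. Of the engulfment genes 3 were called without uninjured control replicate 4 or control replicate 2 at 3 DPI, and of the scramblases and flippases 1 without uninjured control replicate 2 and 0 in a single fit of all 16 libraries or with the rescaled table. In those fits 2 and 3 engulfment genes were called. Gas1 (-3.39) and the noncoding Gas5 (-1.20) fell among other growth arrest-specific genes, and Gas7 (2.20) and Gas2l3 (1.66) rose. Of 54 tested other receptor tyrosine kinases 3 rose and 13 fell, with Csf1r (5.39), Fgfr4 (-2.76) and Fgfr1 (-2.35) changed most. Over all 54 of these kinases 26 had a positive and 28 a negative log2 fold change, with a median of -0.02. The median log2 fold change was 0.40 over the members and 0.07 over all genes.

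In TRF2 MuSC-cKO MuSCs injury called fewer of these genes, and the counts moved with single libraries. Over all genes tested it also called fewer, 4.04% against 20.2% in control. On counts simulated with the spread of each comparison, 19% of 4-fold changes were called in TRF2 MuSC-cKO and 70% in control. The lower counts therefore do not show that the changes were smaller. F7 rose (2.23), the 1 Gla-domain protein called, and 0 were called on leaving out a single uninjured TRF2 MuSC-cKO library or replicate 1 or 4 at 3 DPI. Grb2 (1.88), an adaptor, and Vav1 (2.55) rose, and Pik3r1 (-1.72), the regulatory subunit of phosphatidylinositol 3-kinase, and Socs3 (-2.26), an inhibitor of cytokine signalling, fell. Stab1 (3.32), Cd36 (2.51), Itgb5 (2.05), an integrin subunit, and Cd300lb (2.02) rose, as did Rhog (2.07) and Abca1 (1.57). The 4 calls among phosphatidylserine bridges and receptors became 2 without uninjured replicate 1, 2 or 3 or replicate 1 at 3 DPI. The 2 engulfment calls became 0 without uninjured replicate 1, 2 or 4 or replicate 2 at 3 DPI, and 1 without uninjured replicate 3 or replicate 1 at 3 DPI. Gas1 fell by 3.12 on the log2 scale and Gas7 rose (1.44). Csf1r (3.44) rose, and 4 kinases fell, Fgfr4 (-4.17) and Egfr (-2.12) most. The count of growth arrest-specific genes was 1 without uninjured replicate 1, 3 or 4 or replicate 1 at 3 DPI. Without replicate 3 at 3 DPI, the library with the fewest genes detected, 9 adaptors and signalling proteins, 7 phosphatidylserine bridges and receptors, 4 growth arrest-specific genes and 9 kinases were called. No gene of receptor shedding, vitamin K cycle gene or scramblase was called in edgeR's test, 3, 0 and 0 of them having an unadjusted p under 0.05. Of all 14578 genes tested 2388 had such a p. Whether these counts differ between genotypes was not tested beyond the interaction, in which Gas6 alone was called among all of the listed genes. Over the 9 alternatives of the interaction, 0 to 1 of the other receptor tyrosine kinases were called.

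The genes whose log2 CPM followed each member most closely over the 16 libraries were found among 16976 genes. The libraries share their groups, depth and scaling, so these correlations are a description. For Gas6 they were Fat1, an atypical cadherin (Pearson's r 0.904), Cdkn1a (0.903) and Phlda3 (0.901), a pleckstrin homology protein. Cdkn1a averaged 104 ± 16.1, 492 ± 66.2, 154 ± 39.7 and 138 ± 17.8 CPM in uninjured control, uninjured TRF2 MuSC-cKO, control at 3 DPI and TRF2 MuSC-cKO at 3 DPI, and Phlda3 56.8 ± 11.2, 219 ± 33.9, 41.2 ± 12.8 and 37.96 ± 17.6 CPM. Both stand highest in uninjured TRF2 MuSC-cKO MuSCs, as Gas6 does. For Mertk the closest were Necap2 (0.942), Lilrb4a (0.936) and Sh3kbp1 (0.934), for Pros1 Nucb1 (0.890), Crat (0.879) and Rgs2 (0.868), for Axl Hmgn2 (0.856), H3f3a (0.855) and Mest (0.839), and for Tyro3 Zc3h8 (0.838), Kif21a (0.818) and 1700022I11Rik (0.789). Between members, r ran from -0.65 for Gas6 with Pros1 to 0.64 for Pros1 with Mertk.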

How the data were processed

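RNA was measured in 16 libraries of sorted mouse MuSCs, 4 per group, made from total RNA with the CORALL kit, which primes at random sites and adds molecular identifiers. Whether the identifiers were used to collapse duplicates is not given in the sources used here. Per the submitters' processing notes, reads were trimmed with Trim Galore 0.6.7, aligned with STAR 2.6.1d to GRCm38 (mm10) and quantified with Salmon 1.5.2. The annotation release is not given there. The authors deposited estimated counts per gene, not normalized, and a second table of estimated counts rescaled from abundances. Replicates were not pooled. Library totals ran from 620506 to 1351130 estimated counts.

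Estimated counts were rounded and tested in R 4.3.3 with edgeR 4.0.16. The 8 libraries of each comparison were filtered with filterByExpr, scaled by TMM and fitted with the robust quasi-likelihood test, and p-values were adjusted over all genes tested. The interaction used all 16 libraries. Calls needed an adjusted p under 0.02 (the cut in the study's methods) together with a fold change over 1.5. Log2 CPM for correlations had a prior count of 2. The steps were tested on counts simulated with the spread of each pairwise comparison, with 200 genes changed in each.

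The members and all gene lists were chosen with earlier results of these data known. The genes named are the members, Terf2, defining markers, every called gene of a pathway list with 4 or fewer calls and otherwise the 3 of largest change, the 3 genes most correlated with each member, and the kinases next to each receptor. Terf2 was higher on average in TRF2 MuSC-cKO than in control at 3 DPI, so this gene does not check the labels of these groups. Alternatives were limma 3.58.1 (robust fit and voom), DESeq2 1.42.0, scaling by library size alone or by median-of-ratios size factors, no filter, at least 10 counts in every library, a single fit of all libraries, the replicate number as a block, the rescaled table, leaving out each library and, at 3 DPI, only the libraries that share a description code.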

Additional observations from a re-analysis of the deposited data

Results flagged for a closer look

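The genotype effect on Gas6 passed the test of a difference between uninjured and injured muscle, close to the threshold. Its log2 fold change between TRF2 MuSC-cKO and control was 2.15 in uninjured MuSCs and 0.12 at 3 DPI, and the interaction test of edgeR over 16 libraries gave a log2 difference of -1.95 (adjusted p = 0.0181, over its alternatives 1.99e-06 to 0.15). The call was lost on leaving out any of 13 of the 16 libraries and under 3 of 9 other alternatives. All 4 uninjured TRF2 MuSC-cKO libraries were above all 4 controls, whereas the genotypes overlapped at 3 DPI. Terf2 was not lower in the libraries labelled TRF2 MuSC-cKO at 3 DPI and so does not check their labels. None of the 20 sets of 4 libraries (5 genes in 4 groups) held an outlying library by Dixon's test, which chance passes in about 1 of 20 sets.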

How the results depend on the processing

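In uninjured MuSCs 1 member, Gas6, was called between genotypes under all 10 alternatives (log2 fold change 2.02 to 2.33) and without each of the 8 libraries (1.90 to 2.26). At 3 DPI 0 members were called under the 11 alternatives run. The count of members called after injury fell from 2 to 1 in control MuSCs in the single fit of all libraries and with the rescaled table (1 to 2 on leaving out each library, Axl being lost without uninjured control replicate 2). It rose from 1 to 2 in TRF2 MuSC-cKO MuSCs in the single fit of all libraries and with at least 10 counts in every library (1 to 2 on leaving out each library, Mertk being gained without replicate 3 at 3 DPI). The cause was not tested. Gas6 kept its call there under all 10 alternatives (-2.42 to -2.23). The interaction call of Gas6 was lost, leaving 0 members, with limma-voom (adjusted p = 0.0207), with the replicate block (-1.93, adjusted p = 0.0503) and with the rescaled table (adjusted p = 0.15), and on leaving out single libraries the count was 0 to 1. The cause was not tested.

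Signs turned for Axl in uninjured MuSCs with library size alone (0.084), for Mertk there without TRF2 MuSC-cKO replicate 2 (-0.11 to 0.47 over the libraries left out), for Mertk (0.068) and Tyro3 (0.35) at 3 DPI with only the libraries sharing a description code, and for Tyro3 at 3 DPI without TRF2 MuSC-cKO replicate 4 (-0.62 to 0.10). None of these was called. Replicate numbers did not pair the libraries, as deviations of equal numbers correlated at -0.11 to 0.11. The replicate block otherwise changed no call of a member, and genes called after injury in TRF2 MuSC-cKO went from 589 to 364. Over the alternatives, calls ran from 17 (rescaled table) to 623 around 452 in uninjured MuSCs, 0 to 28 around 0 at 3 DPI, 1595 to 3171 around 3104 and 283 to 1204 around 589 after injury in control and TRF2 MuSC-cKO, and 1 to 123 around 3 in the interaction. Leaving out each library gave 259 to 574, 0 to 16, 2618 to 3344, 358 to 1316 and 1 to 13 in the same order. Of the genes called in uninjured MuSCs 82 of 452 were higher, against 176 of 388 with library size alone.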
